A study of Mus musculus with 12 samples.

Results

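The protein disulfide isomerases P4hb, Pdia3, Pdia4, Pdia5, Pdia6 and Txndc5 and the Ero1 oxidases Ero1l and Ero1lb were followed by RNA sequencing in wild-type (WT) and G2A mice. The 8 genes were chosen by symbol, with earlier results of these data known, and so were the gene lists used below. Counts of members or list genes set beside the share of all genes are therefore descriptions and carry no test. All 8 had an entry in both expression tables, among 23235 entries for fetal liver and 24421 for immortalized mouse embryonic fibroblasts (MEFs). The liver groups were 3 WT and 3 G2A littermate fetuses at E12.5, and the MEF groups were 3 WT and 2 G2A libraries. The third G2A MEF library was not analysed here. The G2A samples carry the genotype Rpt2G2A/G2A, all samples are labelled untreated, and no sample carries another allele in the labels. As background, Rpt2 is an ATPase subunit of the proteasome encoded by Psmc1, and the G2A knock-in replaces the glycine that receives its N-myristoyl anchor. The allele is present in every cell of a G2A fetus or culture. The labels do not say whether the MEF libraries of a genotype are separate cultures or come from 1 line, so p-values there measure only the spread between these libraries.

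As background, secreted and membrane proteins form their disulfide bonds in the lumen of the endoplasmic reticulum (ER). Isomerases of the PDI family hand a disulfide to the folding protein or reshuffle wrong ones, and are then reduced. Ero1 oxidases reoxidize them by passing the electrons to oxygen, which yields hydrogen peroxide. The fetal liver depends on this machinery because its hepatoblasts secrete plasma proteins rich in disulfides, and fibroblasts depend on it for collagen. Several of these genes are known targets of the unfolded protein response, whose factors ATF6 and XBP1 bind the ER stress response element (ERSE), and Ero1l is also known as a target of the hypoxia-inducible factor HIF.

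The promoters of the 8 genes are shown first for the 4 members that differ most in these letters or in response. Each line gives the 250 bases before the transcription start, 5′ to 3′ on the gene's strand, from RefSeq on GRCm38.p6. RefSeq listed promoters for all 8 members, 10 in all. Capitals mark the ERSE in Pdia6 (chr12:17266339-17266588, plus strand) and Ero1lb (chr13:12565633-12565882, plus strand). They mark the CCAAT boxes on either strand in Pdia4 (chr6:47813513-47813762, minus strand), and the HIF core letters ACGTG or GCGTG on either strand in Ero1l (chr14:45318573-45318822, minus strand).

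Pdia6: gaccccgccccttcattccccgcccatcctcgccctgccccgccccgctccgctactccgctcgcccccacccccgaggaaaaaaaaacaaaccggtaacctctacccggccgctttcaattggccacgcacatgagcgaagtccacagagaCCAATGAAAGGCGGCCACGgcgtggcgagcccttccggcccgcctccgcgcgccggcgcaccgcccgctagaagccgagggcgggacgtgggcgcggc

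Ero1lb: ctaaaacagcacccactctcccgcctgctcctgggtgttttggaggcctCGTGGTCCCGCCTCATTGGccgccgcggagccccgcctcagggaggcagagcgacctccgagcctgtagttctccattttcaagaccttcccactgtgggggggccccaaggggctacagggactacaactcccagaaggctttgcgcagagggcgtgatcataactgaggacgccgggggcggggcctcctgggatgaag

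Pdia4: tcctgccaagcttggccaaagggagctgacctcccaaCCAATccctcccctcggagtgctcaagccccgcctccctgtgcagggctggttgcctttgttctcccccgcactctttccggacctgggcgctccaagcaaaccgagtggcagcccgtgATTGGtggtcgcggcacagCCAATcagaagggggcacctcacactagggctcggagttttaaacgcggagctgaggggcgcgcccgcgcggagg

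Ero1l: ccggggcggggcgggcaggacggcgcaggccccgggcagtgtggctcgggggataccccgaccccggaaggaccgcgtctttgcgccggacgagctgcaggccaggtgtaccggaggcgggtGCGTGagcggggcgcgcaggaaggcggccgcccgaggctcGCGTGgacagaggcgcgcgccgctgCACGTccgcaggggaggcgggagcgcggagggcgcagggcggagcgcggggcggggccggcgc

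The ERSE was searched on both strands as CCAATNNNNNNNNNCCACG. It was found in Pdia6, as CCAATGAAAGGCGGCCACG at -98 to -80 from the start, and in Ero1lb, as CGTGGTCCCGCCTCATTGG on the other strand at -201 to -183, and in 37 of 32851 RefSeq promoters (0.113%). The CCAAT box alone, which is part of the ERSE, was in 33.8% of promoters, and its partner CCACG in 28.3%. The Pdia4 window held 3 CCAAT boxes and no match to that partner. Of all promoters 16.6% had ACGTG and 28.2% had GCGTG, searched on both strands; Ero1l had 1 match to the former and 2 to the latter, and Pdia6 had the same counts. Each member except Pdia4 had a match to at least 1 of them, so these letters do not set Ero1l apart. The unfolded protein response element UPRE, TGACGTGG, which includes the former, was in 1 Txndc5 promoter and in 0.563% of all. These are matches of letters, and binding was not measured.

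FPKM totals of the liver libraries ran from 792987 to 840762 and gene reads of the MEF libraries from 36415586 to 37695116. The liver values have no read counts, so their depth is unknown. Some libraries stood apart. On the first principal component of liver, 37.9% of the variance, the WT group lay at -13.3, -23.3 and -21.1, and G2A livers at 30.6, 34.9 and -7.91, so G2A liver 3 lay nearest the WT livers. Among MEFs, WT library 3 differed from WT 1 with a chi-square of 233 per degree of freedom over genes, against 52.7 for WT 1 and 2 and 14.1 for the G2A pair. Hepatoblast markers were present in every liver (Alb 2480 to 4150 FPKM), as were erythroid markers, and the fibroblast collagen gene Col1a1 held 147440 to 367210 normalized reads in every MEF library.

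In WT fetal liver the isomerase Pdia3 was at 322 ± 5.89 FPKM and P4hb at 302 ± 13.5 (SD, n = 3), and the ranges of these leading members overlapped. Pdia6 followed at 195 ± 5.60. Pdia4 (94.4 ± 2.67) and Txndc5 (94.0 ± 0.0647) shared a level, as did Pdia5 (31.0 ± 1.25) and Ero1l (30.5 ± 3.44). Ero1lb was lowest at 1.27 ± 0.304 FPKM. FPKM is scaled by gene length, so these levels can be ordered. In G2A liver Pdia4 (146 to 193 FPKM) lay above the range of Txndc5 (99.9 to 124), and Ero1l (48.5 to 62.1) above that of Pdia5 (32.6 to 36.7). P4hb was below Pdia3 in each WT liver and above it in each G2A liver, with ranges that overlapped in both groups.

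All 8 members had a higher mean in G2A liver, and for 7 of them the groups did not overlap; over all 12938 genes tested 11.8% were higher without overlap. None of the 8 passed an adjusted p of 0.05, as was so for nearly all genes: 3 genes, 0.0232%, passed. At an unadjusted p under 0.05, 7 of 8 members were higher, against 9.07% of all genes. Values of fold change are on the log2(FPKM + 1) scale. The median difference of the members was 0.27 on that scale and that of all genes tested 0.014. The summed level of the members was 1060, 1060 and 1089 FPKM in the WT group, against 1296, 1516 and 1318 in G2A livers 1 to 3. In such tissue samples a change in the number of cells of a type and a change in RNA per cell cannot be told apart.

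**Figure D1:**
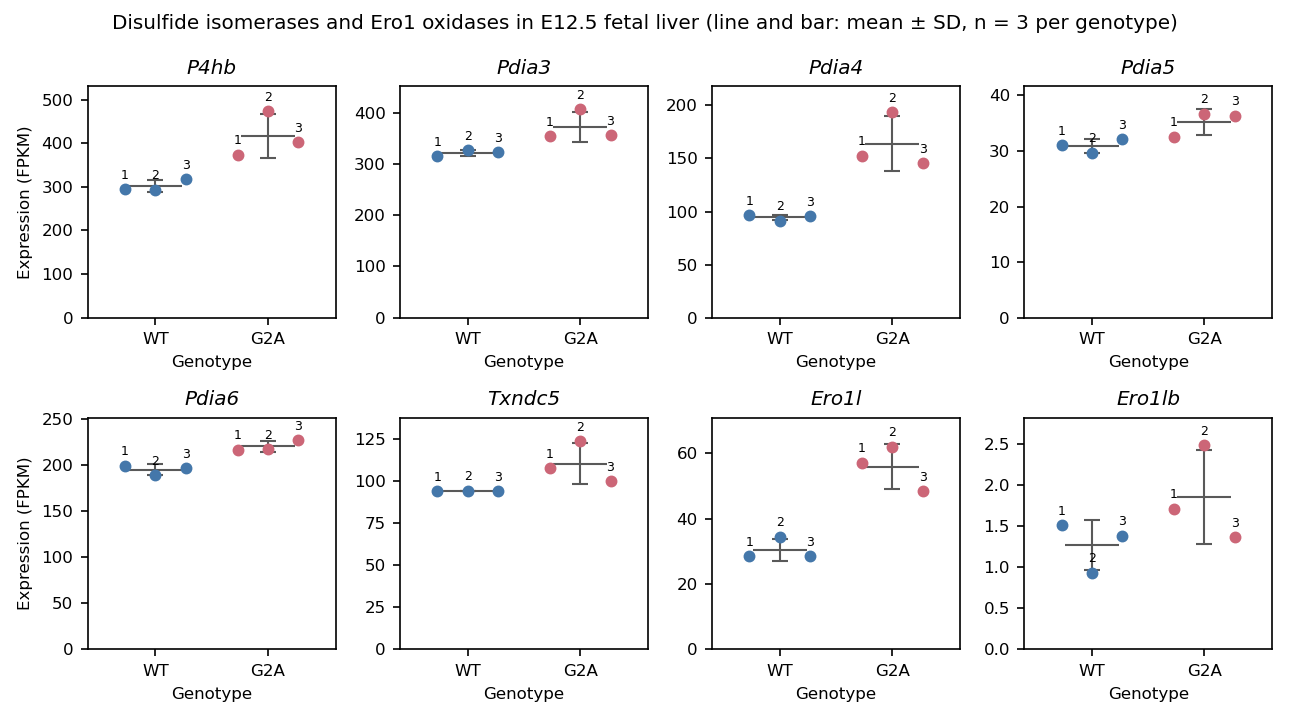
FPKM of each of the 8 genes in each fetal liver (points, numbered by replicate; linear axes from 0), with the mean and SD of 3 WT and 3 G2A livers. For every gene except Ero1lb the lowest G2A point lies above the highest WT point, and the gap is widest relative to the level for Ero1l and Pdia4.

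Among the isomerases the largest difference was that of Pdia4, also called ERp72, which acts in large chaperone complexes of the ER. It measured 96.3, 91.4 and 95.6 FPKM in WT livers 1 to 3 and 153, 193 and 146 in G2A livers 1 to 3. The log2 difference was 0.78 (SE 0.11, 95% interval 0.51 to 1.05; limma, adjusted p = 0.0902). Every G2A liver was thus well above every WT liver, but the difference did not pass the threshold over all genes.

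P4hb, the founding isomerase and also the beta subunit of the collagen prolyl 4-hydroxylases, was at 294, 294 and 317 FPKM in WT and 374, 474 and 403 in G2A livers. The log2 difference was 0.46 (SE 0.096, interval 0.23 to 0.69; adjusted p = 0.101). The groups were separate, and the G2A values spread more widely (SD 51.5 FPKM) than the WT values (SD 13.5).

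The other 4 isomerases differed less. Pdia3, or ERp57, which works on glycoproteins together with calnexin and calreticulin, was at 316, 327 and 323 FPKM in WT and 354, 407 and 357 in G2A livers, a log2 difference of 0.21 (interval 0.04 to 0.37; adjusted p = 0.166). Pdia6, a partner of the chaperone BiP, was at 199, 188 and 197 FPKM in WT and 217, 217 and 227 in G2A livers, a log2 difference of 0.17 (interval 0.05 to 0.30; adjusted p = 0.137). In neither gene did the groups overlap, although both differences were small. Txndc5, or ERp46, a rapid but little selective disulfide donor, was at 93.9, 94.0 and 93.9 FPKM in WT and 107, 124 and 99.9 in G2A livers, a log2 difference of 0.22 (interval 0.02 to 0.42; adjusted p = 0.198). Pdia5 was at 31.0, 29.7 and 32.2 FPKM in WT and 32.6, 36.7 and 36.4 in G2A livers, a log2 difference of 0.18 (interval 0.01 to 0.35; adjusted p = 0.207). Txndc5 differed by 0.14 without G2A liver 2, Pdia5 by 0.08 with a weight per library, and Pdia3 and Pdia6 by 0.33 and 0.29 after quantile normalization. The gap between the groups was narrow for Pdia5, where WT liver 3 and G2A liver 1 nearly met.

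Of the oxidases, Ero1l, the broadly expressed Ero1 alpha, had the largest difference of all members. It was at 28.5, 34.4 and 28.5 FPKM in WT and 57.2, 62.1 and 48.5 in G2A livers. The log2 difference was 0.85 (SE 0.12, interval 0.57 to 1.14; adjusted p = 0.0902). Ero1lb, the Ero1 beta known for its high level in the pancreas, was near the filter of 1 FPKM, at 1.51, 0.931 and 1.38 FPKM in WT and 1.71, 2.49 and 1.36 in G2A livers. Its groups overlapped, and its log2 difference was 0.32 (interval -0.13 to 0.76; adjusted p = 0.359). It was 0.16 without G2A liver 2, 0.20 without WT liver 2 or after quantile normalization, and 0.49 with a pseudocount of 0.1. Of 10 acinar and islet markers of the pancreas, 3 passed the filter; their summed level with the others was 8.51 to 14.03 FPKM in WT and 4.49 to 5.15 in G2A livers, and Prss1 was listed at 0 in all 6.

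The unequal differences moved the make-up of the family. Pdia4 made up 8.83% of the summed FPKM of the members in WT and 11.9% in G2A liver, Ero1l 2.85% and 4.06%, and P4hb 28.2% and 30.2%. The shares of Pdia3 (30.1% and 27.1%), Pdia6 (18.2% and 16.1%), Txndc5 (8.79% and 8.01%) and Pdia5 (2.89% and 2.57%) were lower in G2A liver. These are shares of one sum, so a higher share of one member lowers the others.

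G2A liver 2 had the highest value of all 6 livers for 7 of the 8 genes, the exception being Pdia6 with G2A liver 3. The mean of the members exceeded that of the WT group by 0.34, 0.55 and 0.31 (log2) in G2A livers 1 to 3, and lay within 0.027 of it in each WT liver. Without G2A liver 3, which stood nearest the WT livers, P4hb (log2 difference 0.48, adjusted p = 0.0280), Pdia4 (0.86, 0.00982), Txndc5 (0.29, 0.0325) and Ero1l (0.95, 0.00963) passed the threshold, 4 of 8 members; 12.3% of all genes were then called higher. With a weight per library 6 of 8 members passed, against 26.1% of all genes. Leaving out any other liver gave 0 members called, and all 8 differences stayed above 0.

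Cell type markers also differed between these livers. All 7 mesenchyme markers were higher in the mean of G2A livers, 5 of them without overlap (11.8% of all genes), with a median log2 difference of 1.15. Their summed level was 428 to 643 FPKM in WT livers and 1354, 1966 and 970 in G2A livers 1 to 3. The 8 erythroid markers summed to 2062 to 2983 FPKM in WT and 1656, 1435 and 2719 in G2A livers, and the 8 hepatoblast markers to 9883 to 12267 and 9676, 9343 and 13778. Of the erythroid markers 7 had a lower mean in G2A liver, 2 without overlap (15.7% of all genes), with a median of -0.40. Of the hepatoblast markers 6 had a lower mean, 0 without overlap, with a median of -0.15. The 5 epithelium markers summed to 142 to 161 FPKM in WT and 242, 406 and 163 in G2A livers. All 6 endothelium markers had a higher mean in G2A liver, 3 without overlap (11.8% of all genes), with a median of 0.25. Their sums were 71.6 to 80.0 FPKM in WT and 94.5, 96.8 and 82.8 in G2A livers. G2A liver 2 was highest for mesenchyme, endothelium and epithelium, as it was for 7 of the disulfide enzymes. In G2A liver 3 the sums of mesenchyme and endothelium markers lay above the WT range, that of epithelium markers just above it, and that of erythroid markers within it. By mean log2 level, however, the epithelium markers of G2A liver 3 lay within the WT range, at -0.085 against -0.165 to 0.092 in WT livers. The part of these cell types in the results was not tested.

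The genes that work beside the members are given from lists. Of 24 other thiol-disulfide enzymes of the ER, 20 were tested in liver, 14 had a higher mean and none passed. At an unadjusted p under 0.05, 4 were higher and 1 lower, against 9.07% and 12.4% of all genes. The median log2 difference was 0.14. The 4 with the smallest p were Vkorc1, the vitamin K epoxide reductase (61.7 ± 5.31 FPKM in WT, 74.0 ± 5.52 in G2A), the secreted sulfhydryl oxidase Qsox1 (16.6 ± 1.01, 21.9 ± 3.61), Erp44, which retains Ero1 in the ER (35.1 ± 2.40, 40.5 ± 1.48), and Prdx4, which uses peroxide to oxidize isomerases (97.5 ± 2.05, 110 ± 8.67). Their adjusted p-values were 0.164 to 0.213.

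Among 10 partners of the isomerases, 8 had a higher mean and none passed, with a median log2 difference of 0.10. At an unadjusted p under 0.05, 3 were higher, against 9.07% of all genes. The list holds the 3 catalytic prolyl 4-hydroxylase subunits, which need P4hb for their enzyme. P4ha2 was at 7.17, 6.22 and 7.29 FPKM in WT and 29.2, 47.7 and 18.0 in G2A livers (log2 difference 1.94, adjusted p = 0.0902). P4ha1 was at 17.6, 19.3 and 17.6 FPKM in WT and 40.7, 48.0 and 26.5 in G2A livers (1.001, adjusted p = 0.101). The third, P4ha3, was at 4.98 ± 0.954 FPKM in the WT and 4.97 ± 0.916 in the G2A group, which overlapped. Hspa5, which encodes BiP, was at 334, 332 and 336 FPKM in WT and 438, 512 and 432 in G2A livers (0.46, adjusted p = 0.0902). In P4ha2, P4ha1 and Hspa5 the groups were apart and G2A liver 2 was highest, as for Pdia4 and Ero1l. Uggt1, the folding sensor of the glycoprotein cycle, differed by 0.14 (adjusted p = 0.273). The remaining partners Mttp, Calr, Canx, Tapbp and Sil1 differed by -0.05 to 0.11, and their groups overlapped.

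Of 6 regulators of the unfolded protein response, 3 were higher at an unadjusted p under 0.05, against 9.07% of all genes. None passed, and the median log2 difference was 0.19. WT livers held 72.6 ± 1.94 FPKM of Xbp1 and G2A livers 82.8 ± 3.24. Atf6 was at 9.45 ± 0.335 and 10.8 ± 0.109, and the sensor kinase Eif2ak3 at 5.15 ± 0.180 and 6.29 ± 0.961. Without G2A liver 2 the log2 difference of Eif2ak3 was 0.15, against 0.24 with it. Atf4, the factor translated when eIF2 alpha is phosphorylated, was lower without overlap, at 171, 174 and 178 FPKM in WT and 167, 163 and 164 in G2A livers (-0.08, adjusted p = 0.335). Ddit3, which encodes CHOP, was at 21.9, 20.3 and 23.0 FPKM in WT and 40.8, 49.3 and 25.6 in G2A livers (log2 difference 0.75, adjusted p = 0.146). All 10 HIF targets had a higher mean, and none passed the threshold. At an unadjusted p under 0.05, 8 were higher, against 9.07% of all genes. The median of the 10 was 0.62. Among them were Bnip3 (48.2 ± 11.6 and 124 ± 22.3 FPKM), Pfkfb3 (9.14 ± 0.720 and 15.2 ± 1.95), Vegfa (23.4 ± 1.96 and 42.3 ± 10.02) and Egln3 (7.22 ± 1.01 and 15.4 ± 4.70). Their mean exceeded that of the WT group by 0.75, 0.70 and 0.42 in G2A livers 1 to 3.

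**Figure D2:**
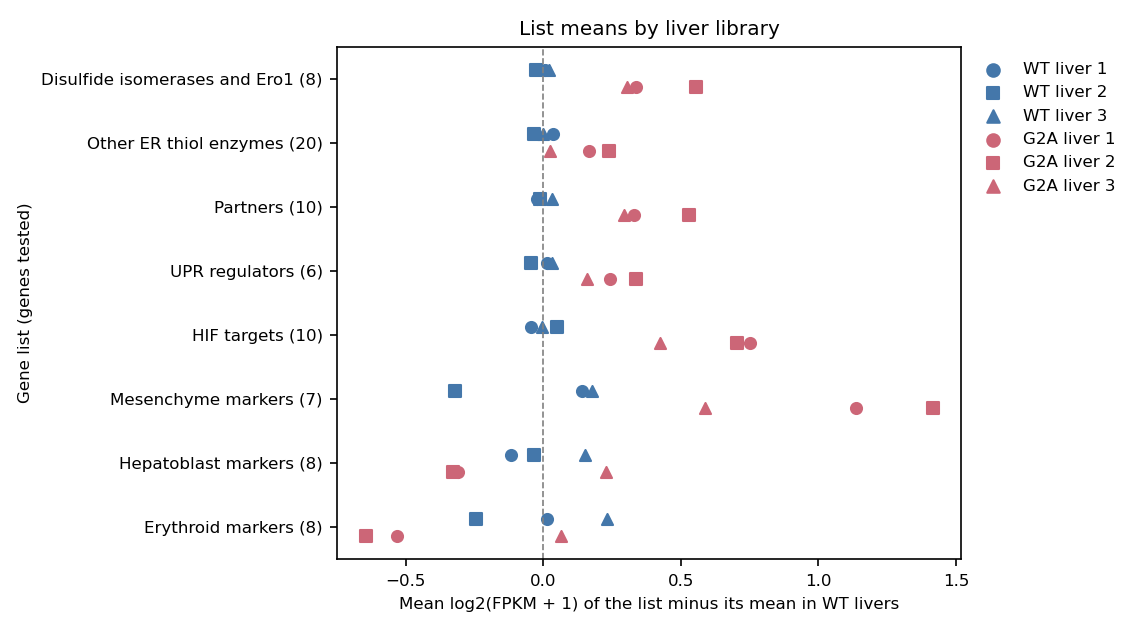
Mean log2(FPKM + 1) of each gene list minus its mean in WT liver, for each of the 6 fetal livers. The members lie 0.34, 0.55 and 0.31 above WT in G2A livers 1, 2 and 3, where mesenchyme markers lie 1.14, 1.42 and 0.59 above it and HIF targets 0.75, 0.70 and 0.42.

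In MEFs the 8 genes gave no difference between the genotypes that passed a test, and the groups overlapped for 7 of them. None of 13241 genes passed (0%; limma), although 14.4% had an unadjusted p under 0.05; for no member was the unadjusted p under 0.05. On the recovered reads edgeR called 0% of 13318 genes, with 1842 at an unadjusted p under 0.05. DESeq2 called 8.09% of 12700 genes and none of the 8 members. Fold changes here are on the log2(normalized reads + 1) scale, and the median of the members was 0.012.

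Per kilobase of exon (NCBIM37 gene models), WT MEFs held the most reads for Pdia3 (13157 normalized reads per kb) and P4hb (12636), whose ranges overlapped. Txndc5 (4427), Pdia6 (3548) and Pdia4 (3027) followed with overlapping neighbours, then Pdia5 (1817), Ero1l (463) and Ero1lb (42.8). As in liver, Pdia3 and P4hb led and Ero1lb was lowest.

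P4hb was at 39148, 36240 and 33070 normalized reads in WT MEFs and 37194 and 37600 in G2A MEFs (log2 difference 0.05, interval -0.33 to 0.43). Pdia4, which was apart in liver, was at 7969, 7908 and 6646 in WT and 6636 and 7152 in G2A MEFs (-0.12, interval -0.44 to 0.20; adjusted p = 0.679). Ero1l was at 2067, 2260 and 1637 in WT and 2200 and 2085 in G2A MEFs (0.12, interval -0.30 to 0.54; adjusted p = 0.755). For each of these genes the G2A values fell largely inside the WT range, and for Pdia4 G2A library 1 lay just below WT 3.

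Pdia3 was the member whose groups did not overlap, at 42522, 43450 and 37931 normalized reads in WT and 33876 and 37347 in G2A MEFs (log2 difference -0.21, interval -0.60 to 0.18; adjusted p = 0.549). Over all genes 18% were lower without overlap. The means of Pdia5, Pdia6, Txndc5 and Ero1lb differed by -0.11 to 0.15 with intervals that included 0, and Ero1lb had 147 to 223 normalized reads in all 5 libraries.

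**Figure D3:**
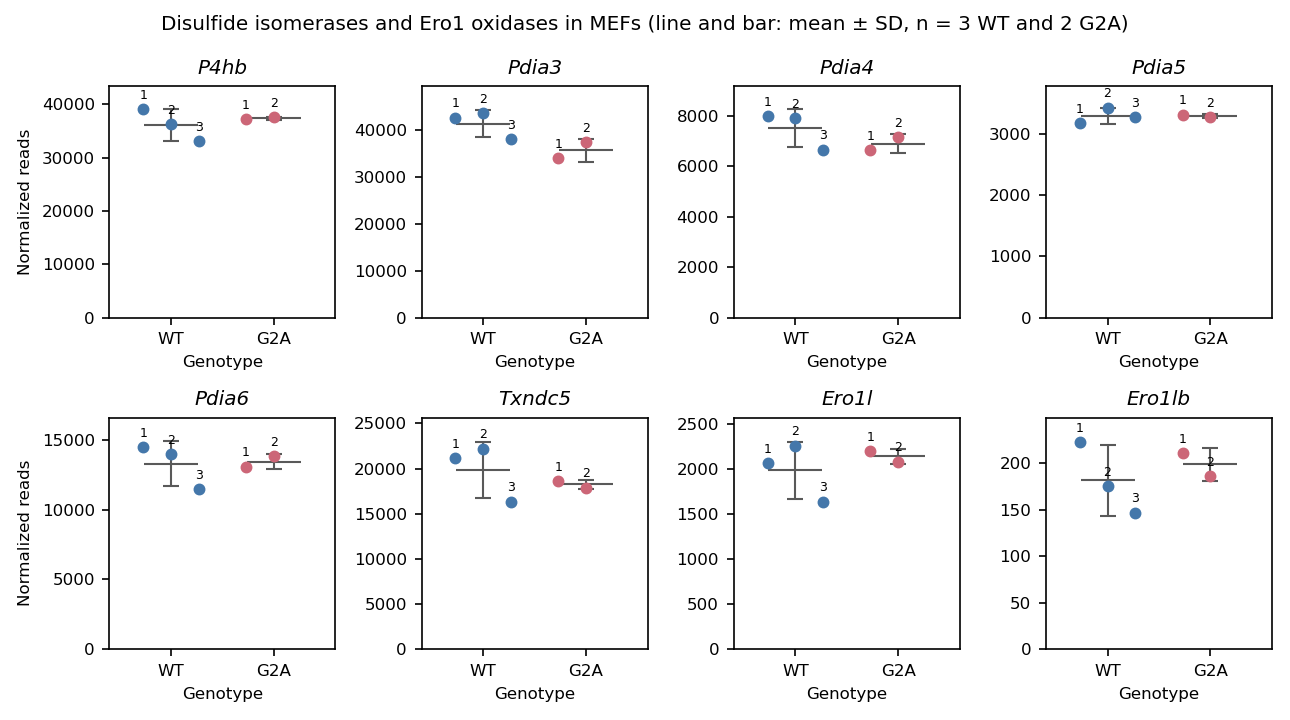
Normalized reads of each of the 8 genes in each MEF library (points, numbered by replicate; linear axes from 0), with the mean and SD of 3 WT and 2 G2A libraries. The groups overlap for every gene except Pdia3, and WT library 3 is the lowest WT point for all genes except Pdia5.

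WT MEF library 3 was lowest of the 5 libraries for 5 of the 8 members, whose sum was 130690, 129590 and 110490 normalized reads in WT and 115100 and 119320 in G2A MEFs. Without it 1 of 8 members had a difference above 0, and 4 of 8 were lower without overlap, as were 33.4% of all genes. No member was then called, against 23.7% of all genes. On leaving out 1 library in turn the log2 difference ran from -0.20 to -0.07 for Pdia4, from -0.25 to -0.03 for Txndc5, from 0.0050 to 0.30 for Ero1lb and from -0.013 to 0.22 for Ero1l, the lowest in each case without WT 3.

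Cell type markers of MEFs were not uniform. Of the mesenchyme markers, Dcn had 4413 normalized reads in WT 3, 18.5 and 1.04 in WT 1 and 2, and 315 and 261 in the G2A libraries. Col3a1 and Pdgfrb of WT 3 lay between those of WT 1 and 2, and its Col1a1 and Col1a2 were the lowest of the WT group. Of 6 mesenchyme markers tested, 4 were lower in G2A MEFs without overlap (18% of all genes), with a median log2 difference of -1.06. The 6 fibroblast markers summed to 910100, 743600 and 494620 normalized reads in WT and 407380 and 387890 in G2A MEFs, a sum carried by Col1a1, Col1a2 and Vim; 3 of the 6 had a difference above 0, and the median was -0.15. The part of these markers in the members' values was not tested.

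The surrounding genes in MEFs were mostly lower in G2A, also without passing. Of 18 other thiol-disulfide enzymes tested 4 were lower and 0 higher at an unadjusted p under 0.05, against 7.48% and 6.9% of all genes. Without overlap 7 of the 18 were lower and 3 higher, against 18% and 18.9% of all genes. Qsox1 was at 11548 ± 1382 normalized reads in WT (n = 3) and 8337 ± 469 in G2A (n = 2), Qsox2 at 1444 ± 216 and 965 ± 15.1, Erp44 at 3640 ± 460 and 2775 ± 21.1, and Vkorc1 at 1076 ± 205 and 716 ± 61.0. Of the partners, Hspa5 was at 34668, 33677 and 35038 in WT and 26380 and 23884 in G2A MEFs (log2 difference -0.46, adjusted p = 0.291). P4ha1 differed by -0.56, Tapbp, which tethers MHC class I to the loading complex with Pdia3, by -1.17, and Sil1 by 0.33. Tapbp was at 13224 in WT 3 and 4572 and 2900 in WT 1 and 2, against 2529 and 2444 in G2A MEFs; without WT 3 the difference was -0.55. Sil1 differed by 0.22 without WT 1. All 6 regulators of the unfolded protein response had a lower mean, with a median of -0.34, among them Ddit3 (-1.002), Atf6 (-0.55), Eif2ak3 (-0.37) and Xbp1 (-0.32). Ddit3 was highest in WT 3, at 2744 normalized reads, and differed by -0.68 without WT 3. Eif2ak3 rested largely on WT 1 and differed by -0.15 without it, and Xbp1 by -0.18 without G2A 2. Of 10 HIF targets 7 had a lower mean, with a median of -0.26; Vegfa differed by -0.33, Pfkfb3 by -0.47, Car9 by -1.51 and Egln3 by 3.19, the last from 6.18 and 7.31 in WT 1 and 2 and 98.7 in WT 3 to 168 and 162. Car9 differed by -0.94 without WT 1.

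Whether the G2A difference itself differed between liver and MEFs was tested gene by gene. No library is shared. The MEF part of the error measures only the spread between these libraries, so the limit given for MEF p-values holds here too. Of the members only Pdia4 passed, with a liver minus MEF difference of 0.90 (SE 0.17, interval 0.53 to 1.27; adjusted p = 0.0350), against 1.34% of 10818 genes called in this direction. The call was lost, with adjusted p up to 0.119, when any of liver WT 2 or 3, liver G2A 1 or 2 or MEF WT 1 was left out, with no filter, and without the variance trend. It was also lost when either MEF G2A library was left out (adjusted p = 0.562 and 0.472), but then 1 G2A library remains, its spread is assumed to be that of the WT group, and little can be read from the p. The difference stayed between 0.77 and 0.98 under all 19 alternatives. Ero1l had a difference of 0.73 (interval 0.28 to 1.19; adjusted p = 0.0794), Pdia3 of 0.42 (0.02 to 0.82; adjusted p = 0.189) and P4hb of 0.41 (0.00 to 0.81; adjusted p = 0.210). The other 4 members differed by 0.15 to 0.34 with intervals that included 0. Without liver G2A 3, 2 of 8 members were called (5.17% of genes), without MEF WT 3, 5 of 8 (14.8%), and with a weight per library 6 of 8 (29.6%).

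**Figure D4:**
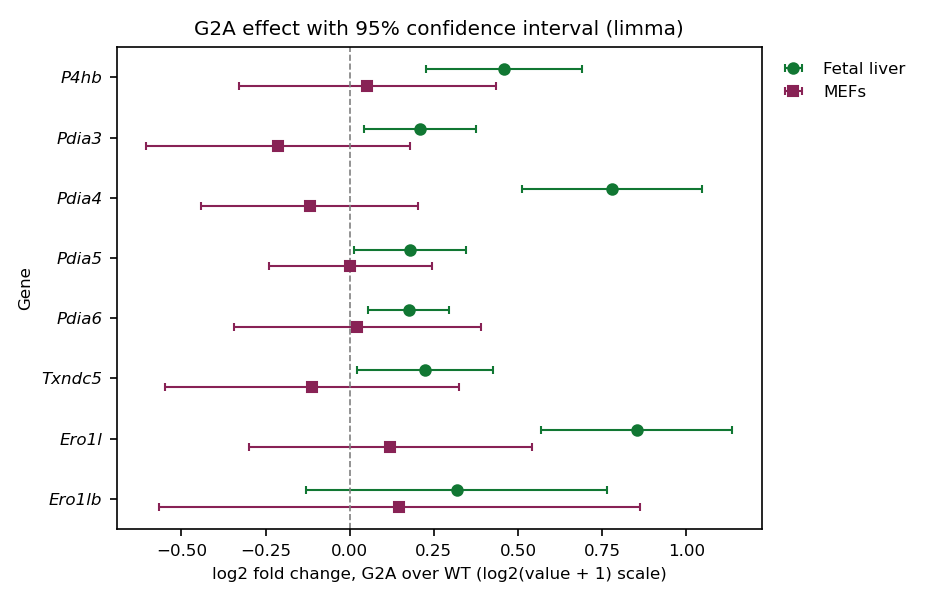
Log2 difference of G2A against WT with its 95% interval for the 8 genes in fetal liver and in MEFs (log2 axis, limma). Liver estimates lie between 0.17 and 0.85, highest for Ero1l and Pdia4, and every MEF interval includes 0.

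The genes with the pattern most like the members were read from the correlation with the mean standardized level of the 8 genes over 11 libraries, after centring each tissue. The highest nonmembers among genes tested in both tissues were Hspa1b (r = 0.97), Nucb2 (0.95), Kdelr3 (0.95), Krtcap2 (0.94) and Zbtb7b (0.94). Their log2 differences were 1.29, 0.94, 1.08, 0.34 and 0.46 in liver and -0.06, -0.12, -0.18, 0.0024 and -0.11 in MEFs. Hspa1b shares nearly all its sequence with Hspa1a, so its reads are uncertain. Of the members, Pdia4 (0.96), P4hb (0.95) and Ero1l (0.90) followed their common mean most closely and Pdia5 (0.79) and Ero1lb (0.77) least. Each member is itself part of that mean, which raises its r, so these values are not comparable with those of nonmembers. The 11 points share 2 tissues and the genotype contrast, so these values describe the libraries and carry no test.

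Positions on NCBIM37 were chr11:120421612-120434567 for P4hb, chr2:121239511-121264423 for Pdia3, chr6:47746141-47763511 for Pdia4, chr16:35397399-35490959 for Pdia5, chr12:17273351-17291576 for Pdia6, chr13:38591948-38620693 for Txndc5, chr14:45902879-45938237 for Ero1l and chr13:12658150-12701793 for Ero1lb. Exons of Pdia3, Pdia6 and Txndc5 overlap genes on the other strand, and the sources used here do not give whether counting used strand. Those neighbours were low: in liver Catsper2 was at 0.258 to 0.514 FPKM, Atp6v1c2 at 0.0433 to 0.170 and Bmp6 at 1.16 to 2.25, against 93.9 FPKM or more for the member. The microRNA gene Mir704 within Pdia4 was at 0 to 118 FPKM with a median of 0.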

How the data were processed

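Trizol RNA was sequenced by BGI, and per the labels' protocols TopHat 2.1.1 mapped the trimmed reads of 50 bases on mm9. Cufflinks 2.2.1 and mm10 are also named, per the submitters' processing notes. The deposited liver values are read as FPKM, from the named tool and their range, since their header gives no unit. The deposited MEF values are a normalized signal; dividing by 1 step per library gave whole reads for 100% of values within 0.01 (size factors 0.958 to 1.06). For the counting tool, annotation and strand, the sources used here give nothing.

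Genotype was fitted to log2(value + 1) of each tissue separately by limma 3.58.1 (R 4.3.3; variance trend) and adjusted by Benjamini-Hochberg over all genes with a threshold of 0.05. Genes needed 1 FPKM in 3 liver libraries or 10 normalized reads in 2 MEF libraries. The difference between tissues used the combined standard error and Satterthwaite degrees of freedom. edgeR 4.0.16 and DESeq2 1.42.0 on recovered MEF reads were alternatives. The scripts were tested on simulated data. Named genes were the 8 members, of each pathway list those past the threshold and the 4 with the smallest p per tissue, and the 5 most like the members. Members and lists were chosen with earlier results of these data known. The labels give 3 littermate pairs, but numbers were not taken as pairs in the main fit. Same-numbered livers correlated at 0.18, -0.10 and 0.10 in their deviations. With 3 livers per genotype these values cannot show whether the numbers are pairs. A fit with the number as a block is given below. No library was a duplicate of another.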

Additional observations from a re-analysis of the deposited data

Results flagged for a closer look

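The difference between genotypes differed between liver and MEFs, by the test of that difference over 10818 genes, for Pdia4 (liver minus MEF log2 difference 0.8982, adjusted p = 0.0350) and for 6 genes of the pathway lists. Over all 10818 genes, 2.21% were called in either direction and 1.34% as higher in liver. The MEF part of the error is again only the spread between these libraries. From the lists only the named genes were read, picked by the smallest p in each tissue. The 6 are therefore no count over whole lists. Of the partners, Hspa5 differed by 0.9157 (adjusted p = 0.0350), P4ha1 by 1.56 (adjusted p = 0.0382) and P4ha2 by 1.783 (adjusted p = 0.0456). Of the other thiol-disulfide enzymes, Qsox1 differed by 0.8334 (adjusted p = 0.0486). Of the HIF targets, Bnip3 differed by 1.737 (adjusted p = 0.0361) and Vegfa by 1.134 (adjusted p = 0.0349). Each kept its direction under all 19 alternatives but missed the threshold under 8 to 11 of them. In each case 2 of these leave 1 MEF G2A library, whose spread is then assumed to be that of the WT group (adjusted p up to 0.562); in the others the adjusted p reached 0.166. Every group held 3 samples or fewer, so no sample was tested as an outlier.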

How the results depend on the processing

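The 119 recomputed liver differences of the 8 members all stayed above 0; 10 of them newly passed the threshold. Over all liver genes 3 were called, 1 without small RNAs, 6057 with library weights and 0 to 3140 on leaving out 1 library. Liver members called were 0, 6 with weights and 0 to 4 on leaving out 1 library, the 4 without G2A liver 3. MEF genes called were 0, 6124 with weights, 1028 by DESeq2 and 0 to 3076 on leaving out 1 library, the highest without WT 3; MEF members called stayed at 0. For the difference between tissues 1 member was called, 0 with no filter or without the variance trend, 2 without small RNAs, 6 with weights and 0 to 5 on leaving out 1 library.

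Small MEF differences changed sign: with library weights P4hb (-0.046), Pdia6 (-0.092) and Ero1lb (-0.11), and by DESeq2 Pdia5 (-0.0020). On leaving out 1 library P4hb ran from -0.010 to 0.11, Pdia6 from -0.082 to 0.088, Ero1l from -0.013 to 0.22 and Pdia5 from -0.024 to 0.031; WT 3 turned P4hb, Pdia6, Ero1l and Pdia5 (-0.0019), WT 1 and G2A 1 (-0.0084) turned Pdia5 too, and G2A 2 turned Pdia6 (-0.018). The liver minus MEF difference of Ero1lb was -0.0051 after quantile normalization. The cause was not tested. With the replicate number as a block, 2 liver genes and 0 members were called, and 3707 MEF genes and 0 members. In MEFs the block leaves out WT 3, which has no G2A partner, so P4hb (-0.010), Pdia6 (-0.082), Ero1l (-0.013) and Pdia5 (-0.0019) again changed sign. Without 1 of the MEF G2A libraries, the lone sample is assumed to vary like the WT group. Not every liver correlated best with its own number. Ero1lb was not tested in liver under the stricter filter. Liver depth is unknown.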

Other observations

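Transcripts of liver secretory proteins appeared in some MEF libraries. Alb had 305 and 330 normalized reads in WT MEFs 1 and 2 and 275 in G2A MEF 1, and was at 0 in WT 3 and G2A 2. Ttr had 15.5, 19.8 and 11.8 in the same 3 libraries and was at 0 in the other two. Hnf4a, a transcription factor of hepatocytes, was at 0 in 4 of the 5 libraries and at 3.09 in WT 1.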
